A study of Mus musculus with 6 samples.

Results

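To examine genes that carry a microRNA gene within their borders, tested loci of the deposited RNA-Seq table were selected whose mm10 interval holds at least 1 whole annotated microRNA gene and also overlaps a protein-coding gene. This rule used positions and no measured level, and it selected 1257 of 13498 tested loci, at 849 distinct positions. The libraries came from primary cortical cultures of Balb/c mouse embryos at E14.5, nucleofected at plating with an shRNA plasmid in the pSuperneoGFP backbone and collected after 4 days in vitro (4 DIV) by the labels, while the study's methods give another day. A non-silencing shRNA was given to the 2 control samples, and an shRNA against Neurod2, shNeurod2-1 or shNeurod2-2 with 2 samples each, was given to the 4 knockdown samples. Neurod2 encodes a neuronal basic helix-loop-helix transcription factor. All 6 samples were nucleofected cultures, and nothing in the labels says whether replicates were separate cultures.

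MicroRNAs are short RNAs that are cut from a hairpin in a longer primary transcript, first in the nucleus by the Microprocessor (DROSHA with DGCR8) and then in the cytoplasm by DICER. The mature strand is loaded onto an Argonaute protein and pairs, mainly through its seed, bases 2 to 8 from the 5′ end, with target mRNAs whose translation and stability it lowers. Many hairpins lie in introns of protein-coding genes and are transcribed with their host, others overlap an exon, and a class called mirtrons spans a short intron and is released by splicing. In developing cortex, microRNAs such as miR-124, miR-128, miR-9 and the let-7 family are known for their part in neuronal differentiation. The libraries were made from total RNA, and the study's methods name no selection step, so their share of primary transcripts is unknown. The values below are levels of the loci and not of mature microRNAs.

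The microRNA genes inside the loci whose levels differed most between the groups gave the following mature sequences. They are from RefSeq (GRCm38.p6), written 5′ to 3′ with the seed in capitals, 1 arm per hairpin, and are shown because the values of their loci are described next.
miR-592-5p: aUUGUGUCaauaugcgaugaugu
miR-6925-5p: uGAGGAAGagaaggcuuggacu
miR-6914-5p: uCCUGGGGuggugguggccacaga
miR-6904-5p: uCCUGGGGuuagaguugagugg
miR-3104-3p: aCGCUCUGcuuugcucccccaga
miR-29b-3p: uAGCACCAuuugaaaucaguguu
miR-29c-3p: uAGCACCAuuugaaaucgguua
miR-1306-5p: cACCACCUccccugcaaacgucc
miR-1895: cCCCCGAGgaggacgaggagga
miR-5046: aGCUCCCGccacugugacccccuu
miR-8115: cCGCAAUAgcaacaagggcucu
miR-3063-5p: uGGAGAUCagguuugcacacu
miR-194-5p: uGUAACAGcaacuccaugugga
miR-215-5p: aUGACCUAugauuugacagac
Among these, miR-29b-3p and miR-29c-3p share a seed and lie in the same locus, Cd46, whereas miR-6914-5p and miR-6904-5p share a seed but lie in different loci, Ankrd52 and Parp1, which stood at opposite ends of the range of ratios. The hairpin of miR-6904 is at chr1:180587201-180587267 over coding sequence of Parp1, on its strand, and that of miR-6914 is at chr10:128382838-128382906 over coding sequence of Ankrd52, also on its strand. Here and below, a hairpin over coding sequence, UTR or an exon is one with any overlap, however short. How far each reaches into the exon was not measured. The miR-29 hairpins are at chr1:195037040-195037120 and chr1:195037547-195037634, opposite to the strand of Cd46 and over its UTR.

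A further set of mature sequences belongs to well-known host and microRNA pairs and to seeds that recurred among the loci, and is shown because several loci lie at the position of each host.
miR-128-3p: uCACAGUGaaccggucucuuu
miR-7a-5p: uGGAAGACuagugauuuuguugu
miR-218-5p: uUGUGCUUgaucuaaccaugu
miR-338-3p: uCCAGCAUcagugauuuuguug
miR-744-5p: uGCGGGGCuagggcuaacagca
miR-15b-5p: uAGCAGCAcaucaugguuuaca
miR-16-5p: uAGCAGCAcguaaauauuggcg
miR-15a-5p: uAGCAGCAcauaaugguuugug
miR-708-5p: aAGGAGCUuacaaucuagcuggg
miR-28a-5p: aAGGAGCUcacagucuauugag
miR-6394: uCCCUGAGuggggccaggucu
miR-125b-5p: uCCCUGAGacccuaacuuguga
let-7c-5p: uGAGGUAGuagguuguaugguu
let-7g-5p: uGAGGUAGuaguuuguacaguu
let-7f-5p: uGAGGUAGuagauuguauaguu
miR-98-5p: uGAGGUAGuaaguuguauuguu
The seed of let-7c, let-7f, let-7g and miR-98 is the same, as is that of miR-15a, miR-15b and miR-16, that of miR-28a and miR-708, and that of miR-125b and miR-6394. Mature sequences were held for 569 of the 1072 microRNA genes inside the loci, which gave 936 mature microRNAs with 830 distinct seeds. Another 379 of the microRNA genes were known only as numbered gene models (Gm names).

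Most loci held 1 microRNA gene (1066 loci), 159 held 2 and 32 held 3 or more, with a maximum of 119 in Sfmbt2, the host of a large hairpin cluster. Of the 1072 microRNA genes, 776 lay within introns of protein-coding genes, 273 overlapped an exon on either strand, and 23 lay outside the gene spans but inside the locus. An overlap of 1 base was enough, so a hairpin that reached only slightly from an intron into an exon was counted with those over exons. Of those over exons, 111 overlapped coding sequence only, 82 UTR only, 27 both, and 53 only an exon of a noncoding transcript of the gene. Of the intronic ones, 163 lay within 20 bp of an exon, the position that mirtrons have, and 442 lay more than 1000 bp away. A locus was called exonic if any microRNA gene in it overlapped an exon (377 loci) and intronic if all lay within gene spans and none overlapped an exon (849 loci), which left 31 others. The median locus length was 66.7 kb, against 25.8 kb for the 10633 tested loci that overlap a protein-coding gene and hold no small RNA gene, which serve below as comparison loci. Only 259 of the 1257 loci were alone at their position. The other 998 shared their exact start and end with at least 1 further row of the table, and because rows carry transcript identifiers and no gene names, which of them holds the host mRNA and which another transcript cannot be told. For a single row, too, whether its value is that of the host mRNA cannot be told.

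The table gives 1 FPKM value (fragments scaled to transcript length and library size) for each group, pooled over 2 and 4 samples. Between these pooled values no spread can be computed and no test was possible, so differences are given as values, and a locus is counted as past 1.5-fold where its ratio exceeds 1.5 in either direction, both values are above 0 and their mean is at least 1 FPKM. The read depth behind a value is unknown. Of the 1257 loci, 1138 met the minimum level, 62 had both values with a mean below it, 55 were listed at 0 in 1 group, and 2 (Marf1 with Mir484, and Ppp1r2 with Gm27415) had cells that could not be restored. The targeted gene, Neurod2, stood at 104.8 FPKM in the non-silencing group and at 60.3 FPKM after knockdown, in the direction of its label. All 8 listed cortical neuron markers were tested, with a summed level of 1806 FPKM against 1919 FPKM, 0 of 4 microglial and 0 of 2 endothelial markers reached testing, and the summed fibroblast and mural markers were at 3.41 against 4.69 FPKM, where Col1a1 was at 0.125 and 0.975 FPKM, Col3a1 at 0.171 and 0.765 FPKM, Dcn at 1.55 and 1.56 FPKM and Pdgfrb at 1.56 and 1.38 FPKM. The astrocyte and radial glia markers, 4 of 5 tested, summed to 1208 against 1359 FPKM, mostly Fabp7 at 1057 and 1227 FPKM, with Gfap at 57.4 and 35.1 FPKM. The oligodendrocyte lineage markers, 5 of 5 tested, summed to 107.7 against 101.6 FPKM. Of the 4 interneuron markers, 1 was tested, Gad2, at 2.49 and 2.18 FPKM. In cultures of mixed cells, fewer cells of a type and less RNA per cell cannot be told apart, and the part of cell makeup in the results below was not tested.

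Loci with a microRNA gene inside stood past 1.5-fold more often than other loci, in both directions. Of 1138 loci, 113 were past 1.5-fold (9.93%), 40 higher and 73 lower in the Neurod2 knockdown, whereas 3.37% of all tested loci (425 of 12609), 1.35% higher and 2.02% lower, and 1.82% of the comparison loci (183 of 10039), 0.817% higher and 1.01% lower, were. With the comparison loci weighted to the same locus length and mean level in 25 bins, their share was 1.56%, and the share of microRNA loci was 6.37 times as large. Locus length is that of the genomic interval and not of the transcripts, so the number of reads behind the values was not matched. The median log2 ratio of knockdown over non-silencing was -0.04 in the microRNA loci and -0.03 over all tested loci, and the median absolute log2 ratio was 0.12, against 0.09 in the weighted comparison loci. Of the 51 tested loci past 4-fold (0.404%, with 0.159% higher and 0.246% lower), 31 were microRNA loci as defined here, 12 higher and 19 lower, 4 more held a microRNA gene but overlapped no protein-coding gene, and 7 were comparison loci (0.0697% of them). Loci that held another kind of small RNA gene but no microRNA gene had a share of 4.21% (42 of 998).

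**Figure D1:**
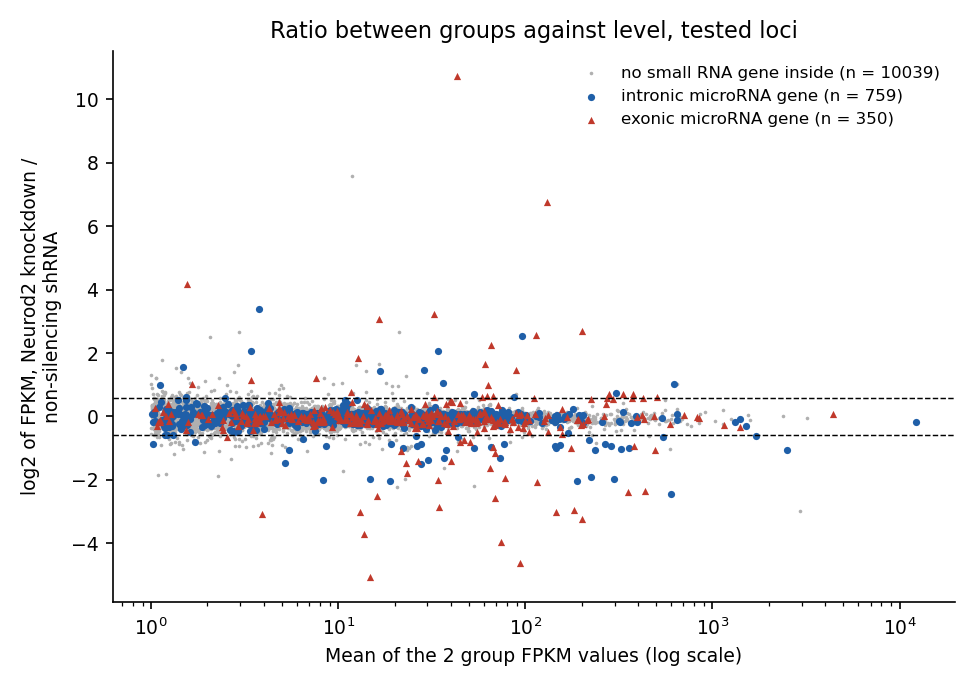
Vertical axis, log2 of the FPKM in the knockdown over that in the non-silencing group; horizontal axis, mean FPKM of both groups on a log scale. The gray points show the 10039 comparison loci, blue circles the 759 loci with intronic and red triangles the 350 loci with exonic microRNA genes, and dashed lines mark 1.5-fold in each direction. Exonic loci reach farthest from 0, among them Cxxc4 at 10.75 and Grm8 at -5.08, while most loci of each kind lie between the dashed lines.

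All 10 loci with the lowest ratios held an exonic microRNA gene. Grm8, which encodes a metabotropic glutamate receptor, went from 28.6 FPKM in the non-silencing group to 0.846 FPKM after knockdown, a log2 ratio of -5.08, and holds Mir592 (chr6:27936655-27936750) over an exon of one of its noncoding transcripts. Kif1c, a kinesin motor gene with Mir6925 (chr11:70705990-70706059) over coding sequence, went from 179 to 7.25 FPKM. Ankrd52, which encodes a regulatory subunit of protein phosphatase 6, went from 139 to 8.84 FPKM. A further row at the same position as Ankrd52 went from 264 to 0 FPKM.

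Dennd6b, with Mir6958, went from 363 to 38.8 FPKM, while another row at its position stood at 7.09 and 6.53 FPKM. For Zc3h12c, of the Regnase family of RNA-binding ribonucleases, the locus with Mir6244 on the opposite strand went from 6.97 to 0.830 FPKM and the other row from 9.81 to 9.85 FPKM. At each of these 2 positions, only 1 of the rows was past 1.5-fold.

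Brsk2, a kinase of neuronal polarity with Mir3104 (chr7:141992179-141992241) over coding sequence, went from 260.2 to 32.0 FPKM. Cd46, which encodes a membrane regulator of complement, went from 23.3 to 2.88 FPKM. Ubn2, a subunit of the HIRA histone chaperone complex with Mir7670 over its UTR, went from 61.1 to 8.41 FPKM. These loci were the single row at their positions, with 7 transcripts for Brsk2, 4 for Cd46 and 5 for Ubn2. Which of these transcripts differed cannot be told.

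Dgcr8, the RNA-binding subunit of the Microprocessor itself, had a pair of rows at its position, which also overlaps Trmt2a and Gm49776. The row with 4 transcripts went from 322 to 41.4 FPKM, a log2 ratio of -2.96, and the row with 6 transcripts went from 19.6 to 18.4 FPKM, a log2 ratio of -0.09. Mir1306 (chr16:18284239-18284317) lies over coding sequence of Dgcr8 and the hairpin of miR-3618 (chr16:18284550-18284637) over its UTR, both on the strand of the gene. The table does not say which row carries them.

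Among the 10 loci with the highest ratios, 8 were exonic and 2 intronic. Cxxc4, which encodes a Dishevelled-binding inhibitor of Wnt signalling, stood at 0.0500 FPKM in the non-silencing group and at 85.9 FPKM after knockdown, a log2 ratio of 10.75, and another row at its position at 7.61 and 9.33 FPKM. Of the microRNA genes there, Mir1895 (chr3:134240505-134240583) lies over coding sequence on the opposite strand and Gm44361 (chr3:134147015-134147108) outside the gene span. Rps6ka4, the kinase MSK2, went from 2.40 to 260.0 FPKM, a log2 ratio of 6.76, with Mir5046 (chr19:6829886-6829944) over coding sequence and UTR. P2rx7, an ATP-gated ion channel gene with Mir8115 (chr5:122682597-122682715) over its UTR, went from 0.163 to 2.96 FPKM.

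The position of Rab3gap2, a regulator of RAB3 GTPases, and Iars2, a mitochondrial isoleucyl-tRNA synthetase, holds Mir664, Mir194-1 and Mir215 in introns. There a row with 2 transcripts went from 0.656 to 6.89 FPKM, and the others stood at 15.7 and 15.96 FPKM and at 15.5 and 15.9 FPKM. Rab22a, an endosomal RAB gene with Mir6340 on its opposite strand, went from 6.29 to 58.9 FPKM, and the other row of its position from 19.6 to 19.1 FPKM. The second intronic locus, at Ccdc157 and Rnf215 with Mir3060, went from 28.6 to 164 FPKM, beside rows at 19.3 and 19.6 FPKM and at 3.60 and 3.83 FPKM.

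Igf2bp1, an mRNA-binding protein gene with Mir3063 over its UTR, went from 3.53 to 29.6 FPKM. Parp1, which encodes a DNA damage-sensing ADP-ribosyltransferase, went from 54.0 to 347 FPKM. Epc1, of the NuA4 histone acetyltransferase complex, held Mir1893 and went from 32.9 to 196 FPKM, and Ank, a transmembrane regulator of pyrophosphate that overlaps Otulin and holds Mir7117, went from 22.99 to 109 FPKM. All of these were single rows at their positions, with 1 transcript for Igf2bp1 and for Parp1, 3 for Epc1 and 2 for Ank. Whether these are host mRNAs cannot be told.

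**Figure D2:**
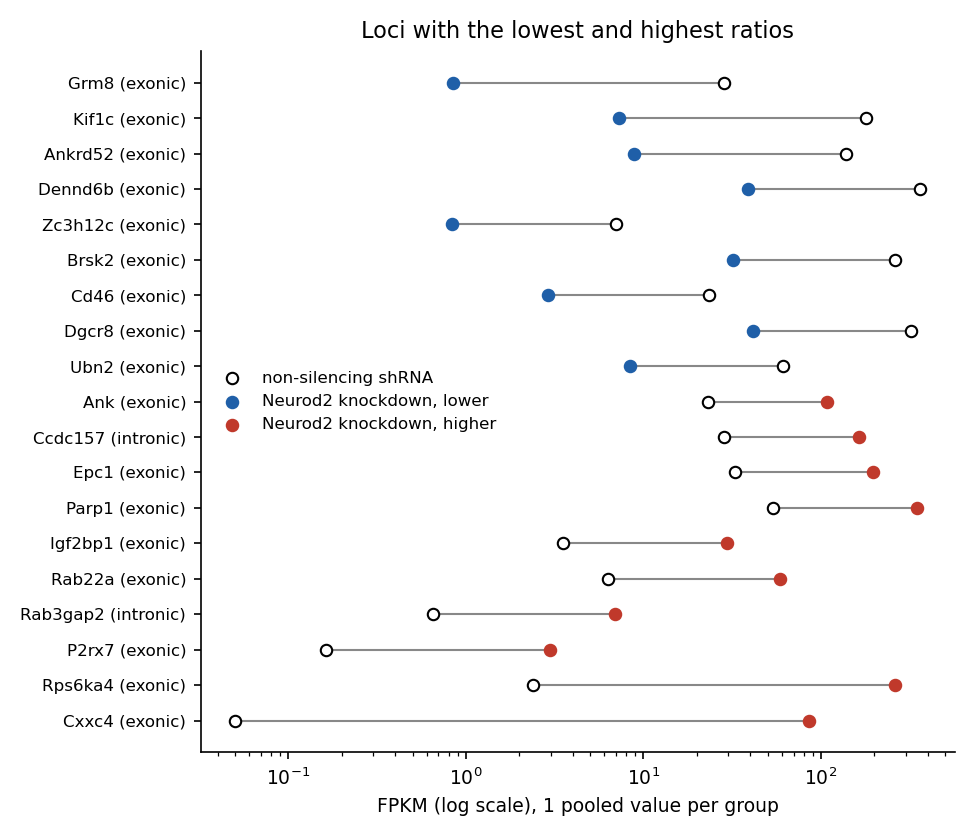
FPKM of 9 of the 10 loci with the lowest ratios and of the 10 with the highest (horizontal log axis). Each line joins the pooled value of the non-silencing group (open circle) to that of the Neurod2 knockdown (filled circle, blue where lower and red where higher), with the position of the microRNA gene in brackets. Cxxc4 spans the widest range, from 0.0500 to 85.9 FPKM, followed by Rps6ka4 and Grm8.

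Separating the loci by where the microRNA gene lies gave unequal shares. Any overlap with an exon placed a locus in the exonic class, and the extent of the overlap was not measured. Of 350 exonic loci, 57 were past 1.5-fold (16.3%), 25 higher and 32 lower, and 24 of them were past 4-fold. Of 759 intronic loci, 54 were past 1.5-fold (7.11%), 14 higher and 40 lower, and 7 were past 4-fold. Comparison loci weighted to the length and level of each class had shares of 1.51% and 1.55%, respectively. With only the loci that share their position with no other tested locus, the exonic share was 18.4% (32 of 174) and the intronic share 1.02% (4 of 393). Comparison loci weighted to all such microRNA loci, and not to each class, had a share of 1.17%. The median absolute log2 ratio was 0.15 in exonic loci against 0.09 in their weighted comparison loci, and 0.10 in intronic loci against 0.10. Exonic loci were shorter, with a median of 34.3 kb against 85.3 kb, and had higher levels, with a median of 24.99 FPKM against 14.4 FPKM with the non-silencing shRNA. Within the exonic class, the share was 16.4% with a microRNA gene over coding sequence (27 of 165), 17.6% over UTR (25 of 142) and 17.1% where only noncoding transcripts of the gene were overlapped (14 of 82). In the intronic class it was 7.66% for microRNA genes 1 to 20 bp from an exon, 8.12% at up to 1000 bp, and 6.33% and 5.88% in a nearer and a farther class beyond that. It was 7.97% where every microRNA gene lay on the strand of its host and 4.83% where any was antisense.

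The number of transcripts in a locus moved with these shares. Loci of 1 transcript were past 1.5-fold in 80 of 389 cases (20.6%) and loci of 2 or more in 33 of 749 (4.41%), against 2.32% and 1.26% of comparison loci with the same numbers of transcripts, weighted in the same way. For intronic loci the shares were 19.4% with 1 transcript (48 of 247) and 1.17% with 2 or more (6 of 512). For exonic loci they were 23.3% (31 of 133) and 11.98% (26 of 217). Loci alone at their position gave 22.9% of exonic loci (30 of 131) and 2.52% of intronic loci (3 of 119). Comparison loci weighted to all microRNA loci alone at their position had a share of 0.901%. Whether the transcript number sets these differences was not tested.

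**Figure D3:**
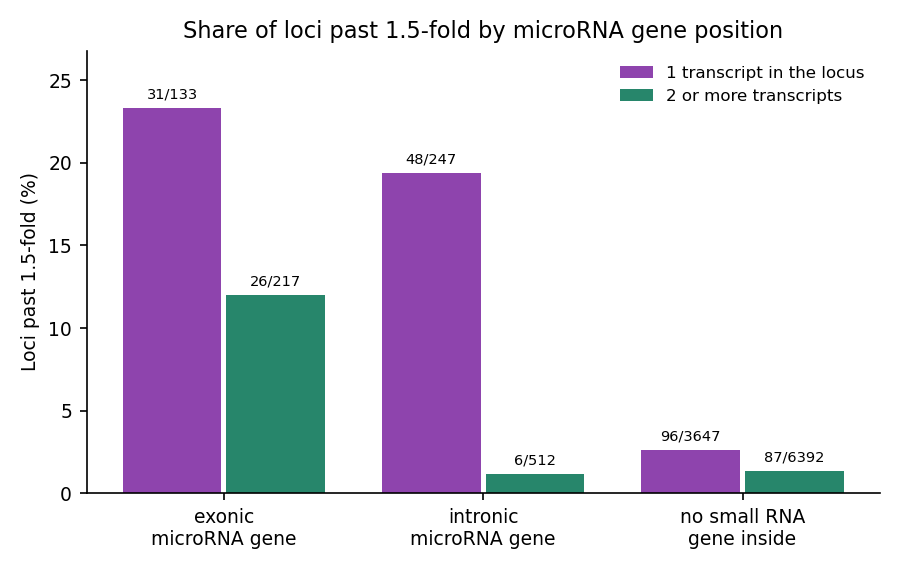
Percentage of loci past 1.5-fold in either direction (vertical axis) for loci with exonic microRNA genes, intronic microRNA genes and no small RNA gene, split by the number of transcripts in the locus (bar colors), with the count of loci over each bar. Intronic loci with 2 or more transcripts, at 1.17%, lie next to the comparison loci with 2 or more, at 1.36%, and the other microRNA bars stand above 10%.

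Comparison loci were past 1.5-fold mainly at low levels, whereas microRNA loci were so mainly at high levels. At a mean of 1 to 5 FPKM the shares were alike, 5.32% of microRNA loci (14 of 263) and 4.66% of comparison loci (114 of 2445). At 5 to 20 FPKM they were 4.36% and 0.877%, and at 20 to 100 FPKM 12.4% and 0.889%. At 100 FPKM or more, 36 of 114 microRNA loci were past 1.5-fold (31.6%), 10 higher and 26 lower, against 6 of 451 comparison loci (1.33%). Most of these loci had 1 transcript, with 29 of 74 past 1.5-fold. Of the 5 loci with the highest mean levels, 2 were past 1.5-fold. Cep95, which overlaps the RNA helicase gene Ddx5 and holds Mir3064, stood at 4310 and 4551 FPKM, and Gm28285, with Mir1949, at 13117 and 11527 FPKM. Rtn3, a reticulon gene with Mir6991 next to an exon, had a row at 2070 and 1346 FPKM, just past 1.5-fold. Fcgr3, an Fc receptor gene with Mir6546 in an intron, went from 3380 to 1625 FPKM at a locus of 62 bp, and Cfap299, with Mir703, was at 1685 and 1353 FPKM. Of other exonic loci with high levels, Eef1a1, the translation elongation factor, stood at 839 and 821 FPKM, and Ppp1r10, a phosphatase 1 regulator, at 698 and 718 FPKM.

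**Figure D4:**
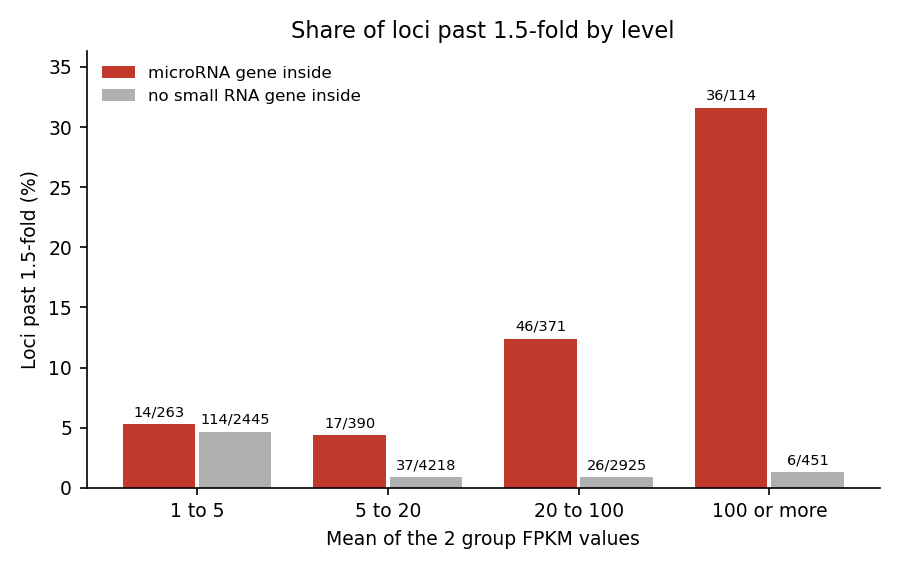
Percentage of loci past 1.5-fold (vertical axis) in 4 classes of the mean of the 2 group FPKM values (horizontal axis), for loci with a microRNA gene inside (red) and comparison loci (gray), with counts over the bars. The red bars reach 31.6% at 100 FPKM or more, where the gray bar is at 1.33%.

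Rows that share a position could be compared with each other. At 191 positions with at least 2 usable microRNA loci, no locus was past 1.5-fold at 120, some but not all were at 69, and all were at 2. At the 718 such positions of comparison loci the numbers were 663, 55 and 0. At 72 positions exactly 1 locus had 1 transcript and exactly 1 had more. There the locus with 1 transcript was past 1.5-fold at 29 positions, 7 higher and 22 lower, the locus with more transcripts at 2, and both at 1. The median absolute log2 ratio was 0.32 for the former and 0.09 for the latter, and the former was the larger at 54 of the 72.

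**Figure D5:**
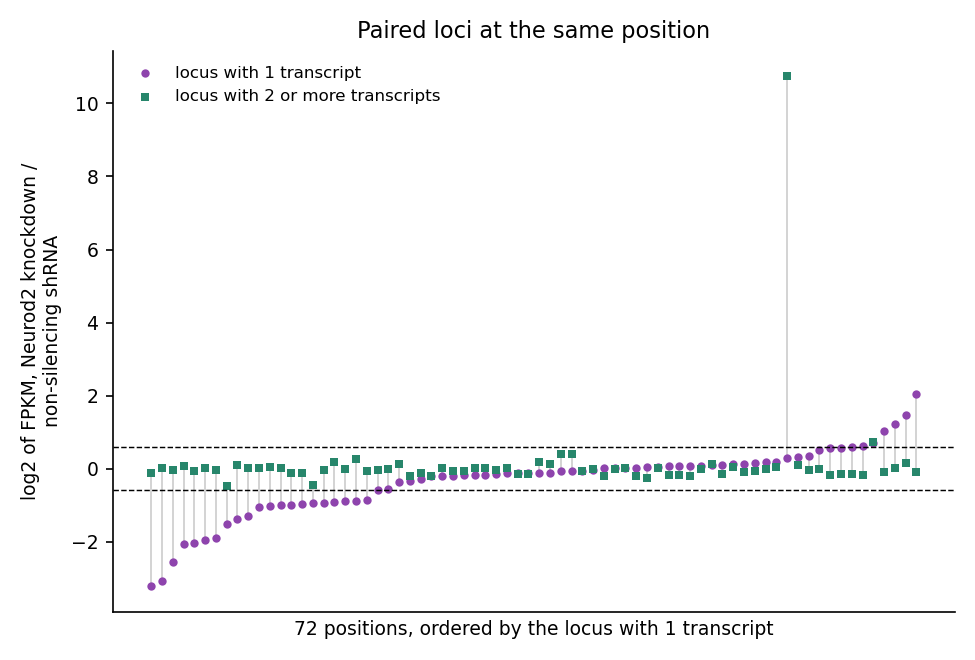
Log2 ratio of knockdown FPKM over non-silencing FPKM (vertical axis) at the 72 positions that hold exactly 1 locus with 1 transcript (purple circles) and exactly 1 with more (green squares), ordered by the former. Dashed lines mark 1.5-fold. Green squares lie within the lines except at 2 positions, one of them Cxxc4 at 10.75, and purple circles cross them at 29.

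The same was seen at hosts of well-known microRNAs. A list of 55 host genes gave 85 loci at 49 hosts, of which 78 met the minimum level; Mir28 of Lpp was matched under its present symbol, Mir28a. Of the 78, 13 were past 1.5-fold (16.7%), 6 higher and 7 lower, and the median log2 ratio was 0.0012. Host loci with 2 or more transcripts were past 1.5-fold in 3 of 48 cases, with a median absolute log2 ratio of 0.06, and those with 1 transcript in 10 of 30, with 0.26. Another 5 host loci were listed at 0 in 1 group.

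Both miR-128 genes lie in introns of neuronal hosts. At Arpp21, a gene of a cAMP-regulated phosphoprotein and the host of Mir128-2, the loci with 13 and 4 transcripts were at 41.6 and 43.5 FPKM and at 15.4 and 15.98 FPKM, and of the loci with 1 transcript one went from 1.98 to 2.96 FPKM and the other from 83.1 to 0 FPKM. At R3hdm1, the host of Mir128-1, the locus with 4 transcripts was at 23.2 and 20.9 FPKM, and the loci with 1 transcript at 1.82 and 1.96 FPKM and at 0 and 147.9 FPKM. The loci listed at 0 thus pointed in opposite directions for hairpins with the same mature 3p strand, miR-128-3p.

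Other hosts had the same layout. At Hnrnpk, which encodes an RNA-binding protein and hosts Mir7-1, the locus with 8 transcripts was at 143 and 144 FPKM and that with 1 transcript went from 13.3 to 55.2 FPKM. At Slit2, the axon guidance ligand gene that hosts Mir218-1, the locus with 7 transcripts was at 5.61 and 5.72 FPKM and that with 1 went from 23.5 to 6.04 FPKM. Aatk, a kinase gene with Mir338, had its locus with 5 transcripts at 17.8 and 18.1 FPKM and that with 1 at 50.9 and 24.5 FPKM.

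At Map2k4, a stress-activated kinase gene with Mir744, the loci were at 32.4 and 36.0 FPKM and, with 1 transcript, at 15.4 and 42.4 FPKM. At Smc4, a condensin subunit gene with Mir15b and Mir16-2, the locus with 4 transcripts was at 32.7 and 33.3 FPKM, and the loci with 1 transcript went from 29.6 to 14.9 FPKM and from 532 to 0 FPKM. Zranb2, a splicing factor gene with Mir186, had loci at 78.1 and 80.2 FPKM and, with 1 transcript, at 436 and 213 FPKM. In each case the locus with more transcripts lay within 1.5-fold.

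Hosts with a single tested locus lay within 1.5-fold, with 1 exception. Among the rest the largest differences were at Ctdsp2 with Mir26a-2, at 44.7 and 32.4 FPKM, and Copz2 with Mir152, at 2.22 and 2.94 FPKM. Ptprn2, with Mir153, was at 24.5 and 24.3 FPKM, and Srebf2, a sterol-responsive transcription factor gene with Mir33, at 63.6 and 63.2 FPKM. Trpm3, a cation channel gene with Mir204, was at 3.78 and 3.77 FPKM. Astn1, a gene of glia-guided neuronal migration with Mir488, stood at 38.5 and 37.3 FPKM. Pank3 with Mir103-1 and Pank1 with Mir107, pantothenate kinase genes whose microRNAs have the same seed, were at 77.1 and 84.7 FPKM and at 4.49 and 4.22 FPKM. The exception, the only one of them past 1.5-fold, was Grm8, described above. Kif1c, listed as the host of Mir497, was not counted here because its locus, also described above, holds Mir6925 and not Mir497. Mcm7, a replicative helicase subunit with Mir25, Mir93 and Mir106b, had 3 loci of 1 transcript each, at 26.1 and 22.7, 122 and 87.2, and 48.8 and 76.6 FPKM, of which the last was past 1.5-fold.

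Clusters of 3 or more microRNA genes were found in 32 loci. In the Sfmbt2 locus, with 119 microRNA genes, the level was 0.575 and 0.829 FPKM. Clcn5, a chloride transporter gene with Mir500, Mir501, Mir362, Mir188 and Mir532, was at 8.74 and 8.60 FPKM. Larp7, a 7SK RNA-binding protein gene with the Mir302 cluster and Mir367 on its opposite strand, was at 8.19 and 8.18 FPKM. Huwe1, a ubiquitin ligase gene with Mirlet7f-2 and Mir98, stood at 49.2 and 50.9 FPKM in the locus with 11 transcripts, while the locus with 1 transcript was listed at 0 in the knockdown. Rtl1, an imprinted retrotransposon-derived gene, has 7 hairpins over its coding sequence. They include Mir127, Mir136, Mir431 and Mir433, which lie on the strand opposite to Rtl1. A locus there was at 1.16 and 1.02 FPKM and the other at 0 and 65.8 FPKM. The Mir23b, Mir27b and Mir24-1 position at 2010111I01Rik had loci at 4.601 and 5.05 FPKM, 2.97 and 3.18 FPKM, 0.626 and 0.686 FPKM, and 0 and 52.8 FPKM.

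A value of 0 in 1 group was listed for 55 microRNA loci, 35 in the knockdown and 20 with the non-silencing shRNA. These 55, of 1257 microRNA loci, made up most of the 99 loci listed in this way among 13498 tested. Of the 10633 comparison loci, 5 were listed so. Each of the 55 had 1 transcript, as did 472 of all microRNA loci and 3946 of the comparison loci. Of the 55, 43 were among the 849 intronic loci and 11 among the 377 exonic loci. In 18 of the 43 a microRNA gene lay within 20 bp of an exon, in 17 of these exactly 1 bp away. The same closeness of 20 bp held for 252 of all 849 intronic loci. For the 45 whose other value was known, it ran from 1.03 to 1320 FPKM with a median of 101 FPKM. Examples that went to 0 in the knockdown were Ubap2l with Mir7669 from 1320 FPKM, Trmt1l with Mir7682 from 654 FPKM, Srf, a transcription factor of serum-induced genes, with Mir6976 from 580.3 FPKM, and Rest, a repressor of neuronal genes, with Mir5098 from 44.5 FPKM. Examples at 0 with the non-silencing shRNA were Rpl13 with Mir7079 at 290.1 FPKM in the knockdown, Josd2 with Mir7052 at 262 FPKM, and Nr6a1 with Mir181a-2 and Mir181b-2 at 51.5 FPKM. At 52 of these loci another usable microRNA locus lay at the same position. There were 67 such loci, and 3 of them were past 1.5-fold. Of the 51 among them with 2 or more transcripts, 1 was, and their median absolute log2 ratio was 0.08. Since each 0 is a pooled value without a known depth, no fold is given.

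In 11 loci the interval was no longer than a hairpin, at most 96 bp, so that the value can only be that of the hairpin region. Of these, 3 went to 0 in the knockdown, Dnajb9 with Mir5627 from 295 FPKM, Spaca6 with Mir99b from 132 FPKM and Nanos3 with Mir181c from 41.8 FPKM. Lower by over 1.5-fold were 6 others, including Fcgr3 with Mir6546, from 3380 to 1625 FPKM, Mrpl51 with Mir3098, from 124 to 32.0 FPKM, and Slc25a47 with Mir345, from 54.6 to 13.6 FPKM. Cdk9 had separate loci for adjacent hairpins, of which the Mir2861 locus went from 253 to 413 FPKM and the Mir3960 locus from 1256 to 1046 FPKM. The former was the only one of the 11 that was higher by over 1.5-fold.

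Recurring seeds were found in loci of either direction. Of 830 seeds, 76 lay at 2 or more positions, 173 lay in a locus past 1.5-fold, and 5 did so at 2 or more positions. A position was counted where any of its loci was past 1.5-fold. Whether the 5 exceed what the share over all 830 seeds would give was not tested. For the seed shared by miR-6904-5p and miR-6914-5p, Parp1 was higher and Ankrd52 lower. For the let-7 seed, GAGGUAG, a locus with 1 transcript at Wdr82, the host of Mirlet7g, went from 36.0 to 19.6 FPKM, and one at Gm11146, which spans Mir99a, Mirlet7c-1 and Mir125b-2, from 207 to 114 FPKM. Other loci at these positions were at 78.5 and 77.9 FPKM for Wdr82 and, for Gm11146, at 19.5 and 21.6 FPKM with 8 transcripts and at 166.8 and 111.2 FPKM with 1 transcript, just short of 1.5-fold. The let-7 seed also lay at Huwe1, with its locus of 11 transcripts at 49.2 and 50.9 FPKM and that of 1 transcript listed at 0 in the knockdown. At Shroom3, with miR-1961, the locus was at 1.31 and 1.25 FPKM. The seed of miR-28a and miR-708, AGGAGCU, lay in Lpp, a focal adhesion gene, with a locus of 1 transcript at 0.751 and 1.48 FPKM beside one of 8 transcripts at 2.39 and 2.64 FPKM, and in Tenm4, a teneurin gene. At Tenm4 the loci with 1 transcript went from 23.6 to 49.4, from 2.17 to 1.25 and from 33.5 to 25.7 FPKM, while the locus with 6 was at 14.52 and 14.59 FPKM. Tenm4 also holds miR-6394, whose seed, CCCUGAG, is that of miR-125b in Gm11146. The last shared seed, UUCUGAC, belongs to miR-1966-3p, where a locus with 1 transcript at Agrp, Ctcf and Ripor1 went from 36.3 to 10.6 FPKM, and to miR-7006-3p, where one at Uckl1, Zfp512b and Prpf6 went from 475 to 119.7 FPKM. The other rows at both positions were within 1.5-fold, at 25.2 and 24.7 FPKM and at 11.6 and 10.8 FPKM for the former, and at 1.37 and 1.69 FPKM, 16.9 and 17.01 FPKM and 8.73 and 6.29 FPKM for the latter.

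Loci with a named microRNA gene were past 1.5-fold in 103 of 797 cases (12.9%), and loci whose microRNA genes were known only as gene models in 10 of 341 (2.93%). With 2 or more microRNA genes the share was 10.5% (18 of 172), and with 1 it was 9.83% (95 of 966). Loci that also held another small RNA gene had a share of 8.20% (20 of 244).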

How the data were processed

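RNA-Seq was run on 2 samples with a non-silencing shRNA and 4 samples with an shRNA against Neurod2, as 50 bp single-end reads. The submitters' processing notes name TopHat, Cufflinks, Cuffdiff and mm10, with no versions, and their settings are not analysed here. The authors deposited 1 table of 32357 loci with 1 FPKM value per group, pooled over samples by the authors, of which 13498 were tested, 18846 not tested, 10 too deep and 3 failed. FPKM divides reads by transcript length, so 1 read weighs more in a short transcript. The deposited log2 fold change, test statistic, p-value and q-value are the authors' comparison and were not used, except that the fold served as a checksum.

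A spreadsheet had turned many FPKM cells into clock times. Readings were kept where their log2 ratio matched the deposited fold within 2e-05, which restored 4875 tested loci, 419 of them microRNA loci, and left 19 open. The decoding and weighting were tested on simulated data. Loci were named from GENCODE M21 (Python 3.11.15). Comparison loci were weighted to the microRNA loci over 5 by 5 bins of locus length and mean FPKM. Planned tests could not be run on 1 value per group. The members and gene lists were chosen with earlier results of these data known. Loci named are the 10 lowest and 10 highest ratios, the 5 highest means, the 6 highest exonic means, listed hosts, loci with 3 or more microRNA genes or with 1 group at 0, except 2 loci that are not reported here. The short loci, recurrent seeds and 1-transcript comparisons were chosen after values were seen.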

Additional observations from a re-analysis of the deposited data

How the results depend on the processing

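Of 76 values recomputed under 16 settings, 44 stayed within the 95% interval of the reported value (exact binomial for shares, order statistics for medians, counting error over loci only), 32 moved outside it, and no median changed sign. The share of microRNA loci past 1.5-fold became 6.45% without positions shared by tested loci, 11.9% with exactly 1 protein-coding gene, 5.71% past 2-fold, and, as settings chosen after seeing the data, 4.41% with 2 or more transcripts, 13.1% alone at their position and 14.1% with loci at 0 counted as past. The share of weighted comparison loci became 0.807% with a pseudocount of 1 FPKM, 2.64% with no minimum level, 0.778% with a mean of at least 5 FPKM, 1.17% without shared positions, 0.413% past 2-fold, 1.82% unweighted, 1.26% with 2 or more transcripts and 0.901% alone at their position. It stayed below that of microRNA loci in each setting run on both. Exonic loci became 21.3% with 1 protein-coding gene, 11.1% past 2-fold, 11.98% with 2 or more transcripts and 22.9% alone. Intronic loci became 1.02% without shared positions (4 of 393), 3.43% past 2-fold, 1.17% with 2 or more transcripts and 2.52% alone. Without shared positions, and with 2 or more transcripts, their share was close to the 1.17% and 1.26% of comparison loci. Those comparison loci were weighted to all microRNA loci of the setting and not to the intronic class. The cause was not tested.

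The median absolute log2 ratio of microRNA loci became 0.0968 with the pseudocount, 0.101 at 5 FPKM or more, 0.0996 without shared positions and 0.0949 with 2 or more transcripts, and that of comparison loci 0.0852, 0.0976 and 0.0844 with the pseudocount, no minimum and at least 5 FPKM, and 0.0979 unweighted. The median log2 ratio became -0.0078 when centred on all tested loci, and the median level 14.4 FPKM instead of 16.1 FPKM without shared positions. No paired analysis was possible because the table holds 1 pooled value per group, and no sample could be left out for the same reason. Depth per sample is unknown, so counting error of single values cannot be given.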

Other observations

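Tested loci that hold a microRNA gene but overlap no protein-coding gene numbered 99, and 37 of them were shorter than 200 bp, the size of a hairpin. Among these short loci, 7 were listed at 0 in the knockdown and 4 at 0 with the non-silencing shRNA. Of the 26 with both values, 15 were lower and 2 higher by over 1.5-fold, with a median log2 ratio of -0.91. Mir124a-3, of the brain-enriched miR-124 family, went from 163 to 0 FPKM. Mir124a-1 and Mir124a-2, of the same family, lay in longer loci and did not go to 0. The log2 ratio was -0.298 for Mir124a-1, and 0.186 and 1.86 for the rows of Mir124a-2. Of other short loci, Mir129-2 went from 219 to 0 FPKM and Mir138-2 from 103 to 0 FPKM, whereas Mirlet7i went from 0 to 105 FPKM. Of the let-7 hairpins on chromosome 13, Mirlet7a-1 went from 88.2 to 35.4 FPKM, Mirlet7f-1 from 213 to 112 FPKM and Mirlet7d from 67.7 to 41.7 FPKM. In the Mir17 cluster, Mir17 went from 142 to 76.3 FPKM and Mir18 from 166 to 84.2 FPKM, but Mir19a from 132 to 276 FPKM and Mir20a from 62.5 to 72.4 FPKM, so neighbouring hairpins of the same primary transcript did not have the same direction. Longer loci of this kind were past 1.5-fold in 14 of 55 cases (25.5%).

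Ratios of lower loci lay close to whole log2 steps more often in microRNA loci with 1 transcript and in hairpin-sized loci than in other sets. Of 52 microRNA loci with 1 transcript that were lower by over 1.5-fold, 18 had a log2 ratio within 0.1 of -1 and 9 within 0.1 of -2, together 51.9%. For microRNA loci with 2 or more transcripts this held for 1 of 21, and for comparison loci of any transcript number for 20 of 101 (19.8%). For all hairpin-sized loci, with or without a protein-coding gene, it held for 15 of 21. This set overlaps that of microRNA loci with 1 transcript, and Fcgr3 is in both. Loci higher in the knockdown were not counted in this way. The pooled groups hold 2 and 4 samples, and the part of this in the ratios was not tested. This pattern was noticed after the values were seen.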
